A study of Tetranychus urticae with 4 samples.

Results

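The genes described here are 6 cysteine peptidase genes of the two-spotted spider mite Tetranychus urticae, out of 18217 genes represented on the array. They were taken from the study's list of cysteine peptidases that differed between diapausing and non-diapausing females, and they were chosen by their fold changes in these samples: the 2 papain-like (C1A) genes with the deepest falls, the 3 C1A genes that rose, and the legumain (C13) gene with the deeper fall. The direction and size of their fold changes are therefore given as a description, without a test. Of the C1A genes, tetur02g11420 (TuPap-9) is annotated as a cathepsin B, and tetur23g00860 (TuPap-53), tetur02g14540 (TuPap-43), tetur16g03770 (TuPap-44) and tetur16g03680 (TuPap-31) as cathepsins L. The C13 gene is tetur03g02400 (TuLeg-11). All 6 genes had a value, and all were well above background in both groups on each of the 4 arrays with at least 1 probe.

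Total RNA from whole adult females of the LS-VL strain was compared on 4 dual-colour arrays, 1 per biological replicate. Diapausing females (DIA, labelled with Cy5) and non-diapausing females (NON-DIA, labelled with Cy3) had both developed from the larval stage at 17 °C, 80% relative humidity and 8 h light with 16 h dark, conditions that induce diapause in some of the mites and not in others. The diapausing females were recognised by their orange colour, and more of them than of the green non-diapausing females were pooled for each RNA sample. The dyes were not swapped on any array, so that a dye effect and a diapause effect on a gene cannot be told apart. As whole mites were extracted, a different share of a tissue, such as gut or ovary, and a different amount of RNA per cell cannot be told apart either.

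Papain-like peptidases cut peptide bonds with a cysteine in the active site. Cathepsins L are mostly endopeptidases, whereas cathepsins B also remove dipeptides from the end of a chain. They work in lysosomes of most animals, and in plant-feeding mites they are also regarded as the main enzymes of protein digestion in the gut. Legumains cut after asparagine and are known in ticks and plants to activate other peptidases. Diapausing spider mites stop feeding.

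The primers of the study's qPCR assay for tetur23g00860 are printed because they identify the transcript of 1 of the deepest falls, and they are given 5′ to 3′ as listed in the study's supplement. The qPCR values were not analysed here.
tetur23g00860 forward primer: tctgattacatattcattcggaggta
tetur23g00860 reverse primer: ttataaattcctcctttgtaaaacttg

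Gene values below are log2 ratios of DIA over NON-DIA signal, so that a negative value means a lower signal in diapausing females. Each gene value is the mean over those of its probes that exceeded background clearly, in either channel, on 2 or more of the 4 arrays. A gene is called when its Benjamini-Hochberg adjusted p from limma is under 0.05 and its change is at least 2-fold. Of the 14986 genes tested, 9.10% were called lower and 9.04% higher in diapausing females, 18.1% in either direction. Of the 6 members, 3 were called lower and 3 higher, which the way they were chosen fixes. Median signals of all gene spots lay between 219.8 and 235 in the DIA channel and between 219 and 236 in the NON-DIA channel, and Pearson's r between the log2 ratios of pairs of arrays, taken across genes and so not over independent replicates, was 0.877 to 0.914. The 6 vitellogenin genes, which encode yolk protein precursors, were lower in diapausing females on all 4 arrays. The study named them among its most downregulated genes on these same arrays, so their fall is no independent check of the labels.

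The cathepsin B gene tetur02g11420 had the deepest fall of all listed cysteine peptidases. Its log2 ratio was -7.49, -6.39, -6.72 and -5.51 on replicates 1 to 4, with a mean of -6.53 ± 0.82 (SD, n = 4), and it was the 30th lowest of the 14986 genes. It was lowest on replicate 1 and highest on replicate 4, and even the highest array lay below the lowest array of any listed C1A gene other than tetur23g00860, tetur23g00880 and tetur23g00890. On its brightest probe, CUST_9396, the processed signal was 305, 372, 395 and 884 in diapausing females and 34775, 31782, 34289.9 and 34244 in non-diapausing females. The spread between arrays lay in the DIA channel, where the SD of the log2 signal was 0.68, against 0.059 in the NON-DIA channel, and replicate 4 had the highest DIA signal.

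The other probes of tetur02g11420 showed the same order of spreads. CUST_9394 had signals of 74.9 to 271 in diapausing and 8309 to 11469 in non-diapausing females, and the SD of its log2 signal was 0.77 in DIA and 0.21 in NON-DIA. For CUST_9395 the signals in diapausing females were 100.0, 86.7 and 231 on replicates 2 to 4 and lower on replicate 1, against 10213 to 13637 in non-diapausing females, with an SD of 1.17 in DIA and 0.19 in NON-DIA. CUST_9395 also had the deepest mean log2 ratio of the 3 probes, -7.11, against -6.23 and -6.24 for the others. It was well above background in diapausing females on replicates 2 to 4 only. None of the 3 probes lists another gene. The 92.2-fold fall of tetur02g11420 became 55.4-fold (-5.79) with normexp and loess and 45.2-fold with normexp and median centring.

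**Figure D1:**
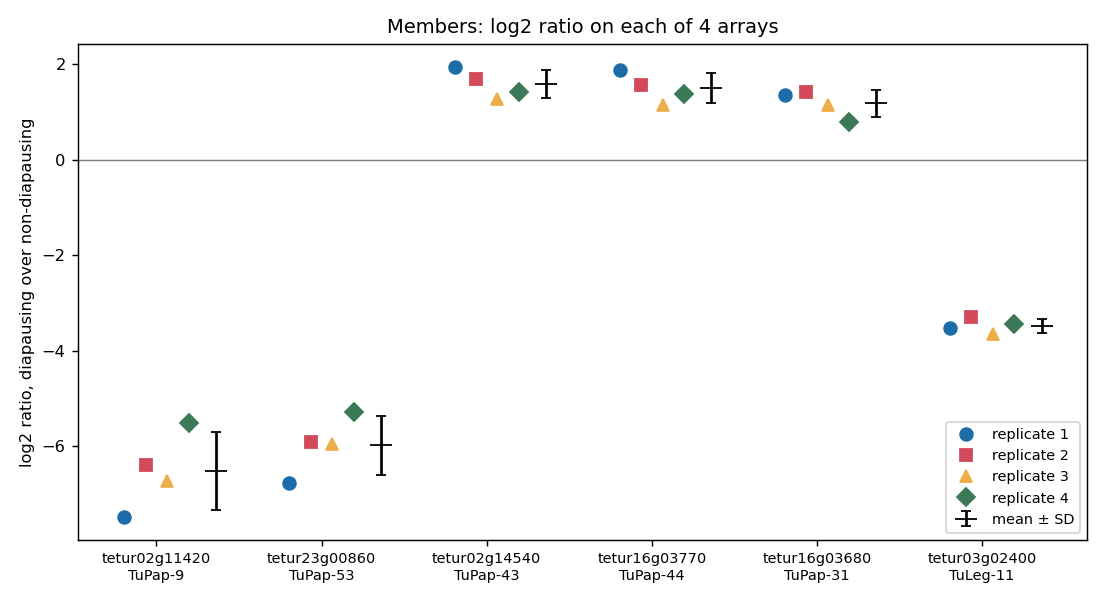
Log2 ratio of diapausing over non-diapausing females (vertical axis) for the 6 members (horizontal axis), with 1 point per array and the mean ± SD of 4 arrays beside them. The 4 arrays of tetur03g02400 lie between -3.65 and -3.29, while those of tetur02g11420 spread from -7.49 to -5.51.

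The cathepsin L gene tetur23g00860 came next, with log2 ratios of -6.78, -5.92, -5.95 and -5.28 on the 4 arrays. As for tetur02g11420, replicate 1 was lowest and replicate 4 highest. On its brightest probe, CUST_44433, the signal was 40.6, 52.6, 64.6 and 149.6 in diapausing females, against 4201, 3269.7, 3091 and 3039 in non-diapausing females. The highest DIA signal was again that of replicate 4. The groups did not overlap, but the gene was chosen for its deep fall on these arrays.

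The signals of tetur23g00860 in diapausing females were close to background on its other probes. CUST_44434 had signals of 12.9, 35.9, 28.5 and 58.9 in diapausing and of 1754, 1343, 1563 and 1589 in non-diapausing females, and it was well above background in diapausing females on 2 of the 4 arrays. CUST_44432, with signals of 4.19 to 6.34 in diapausing and 397 to 595 in non-diapausing females, was not well above background in diapausing females on any array. This probe therefore gives a bound only, of at least 5.48-fold lower in diapausing females, computed from the 2 channels on their own, with normexp (offset 50) for the background and loess and quantile scaling. The software's ratios of the other probes were -5.64 (CUST_44433) and -5.71 (CUST_44434). The gene mean of -5.98 ± 0.61 (SD, n = 4), a 63.1-fold fall, includes CUST_44432, and with detection required in both channels it was -5.68, or 51.2-fold. The size of this fall depended on the background correction, as the mean became -3.56, or 11.8-fold, with normexp and loess and -3.31, or 9.91-fold, with normexp and median centring.

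**Figure D2:**
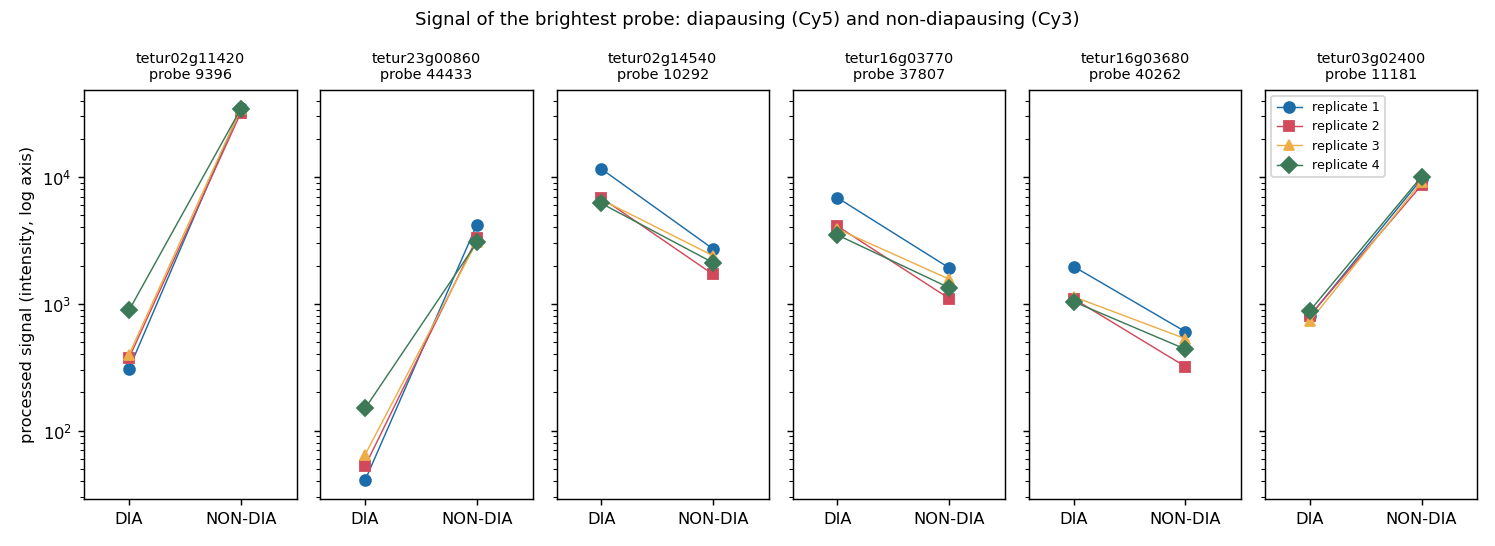
Processed signal (intensity, logarithmic vertical axis) of the brightest probe of each member in the DIA and NON-DIA channels, with a line joining both channels of an array. The probes shown for tetur16g03770 (CUST_37807) and tetur16g03680 (CUST_40262) also list another gene. In tetur02g11420 and tetur23g00860 replicate 4 has the highest DIA signal, 884 and 149.6, whereas the NON-DIA signals of each gene lie close together.

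The legumain gene tetur03g02400 had log2 ratios of -3.52, -3.29, -3.65 and -3.45, a mean of -3.48 ± 0.15 (SD, n = 4). Its arrays lay close together with the software's normalization, and replicates 1 and 4, the extremes of both deeper falls, both lay between replicates 2 and 3. With spike-in scaling the SD of tetur03g02400 was 0.61, so that the closeness depends on the scaling. Its brightest probe, CUST_11181, had signals of 799, 807, 728 and 880.0 in diapausing and of 9643, 8603, 9128 and 10062 in non-diapausing females. The SD of the log2 signal of CUST_11181 was 0.11 in DIA and 0.098 in NON-DIA, so that neither channel varied more than slightly. Its 3 probes list no other gene and gave -3.41, -3.54 and -3.48. The 11.1-fold fall of tetur03g02400 became 6.68-fold with normexp and median centring.

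The 3 genes that rose are all cathepsins L. For tetur02g14540 the log2 ratios were 1.95, 1.69, 1.26 and 1.42, a mean of 1.58 ± 0.30 (SD, n = 4) and a 2.99-fold rise. For tetur16g03770 they were 1.88, 1.57, 1.15 and 1.37, a mean of 1.49 ± 0.31 (SD, n = 4) and a 2.81-fold rise. In both genes replicate 1 was highest and replicate 3 lowest, but the likeness is in part built in, because 2 of the 4 probes of each gene, CUST_10294 and CUST_37807, list both genes. The order also depends on the scaling. With spike-in scaling replicate 1 was not the highest on any probe of either gene, and the SDs were 0.57 (tetur02g14540) and 0.58 (tetur16g03770).

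The probes that list only 1 of these genes separate the pair. The own probes of tetur02g14540 averaged 2.00, 1.68, 1.26 and 1.44 on the 4 arrays. Those of tetur16g03770 averaged 1.87, 1.44, 1.03 and 1.33. The value of tetur02g14540 was higher on each array, by 0.13, 0.24, 0.23 and 0.11, a mean of 0.17 ± 0.068 (SD, n = 4). This is less than the distance between the own probes of tetur02g14540, which gave 1.78 (CUST_10292) and 1.40 (CUST_10293), while those of tetur16g03770 gave 1.39 (CUST_37808) and 1.45 (CUST_37809). Both genes thus rose on probes of their own, and their order rests on CUST_10292.

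In signal, CUST_10292 of tetur02g14540 measured 11564, 6852, 6623 and 6186 in diapausing females and 2705, 1704, 2391 and 2107 in non-diapausing females. The own probe CUST_37808 of tetur16g03770 measured 3807, 1955, 1943 and 1997 in diapausing and 1021, 768, 1003 and 787 in non-diapausing females. On both probes the lowest DIA signal lay above the highest NON-DIA signal, but both genes were chosen because they rose on these arrays. Replicate 1 had the highest signal in both channels, and the SD of the log2 signal was 0.41 in DIA and 0.28 in NON-DIA for CUST_10292. For its other own probe, CUST_10293, it was 0.50 in DIA and 0.25 in NON-DIA, and for CUST_37808 it was 0.48 in DIA and 0.22 in NON-DIA, so that the DIA channel varied more on all 3 probes.

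The rise of tetur16g03680 could not be assigned to that gene alone. Its log2 ratios were 1.34, 1.42, 1.15 and 0.78, a mean of 1.17 ± 0.28 (SD, n = 4), and replicate 4 was lowest. With spike-in scaling replicate 3 was lowest instead on each kept probe of tetur16g03680. All 4 of its kept probes also list tetur196g00020, which had the identical value and is named here after its values were seen. The brightest of them, CUST_40262, had signals of 1965, 1095, 1136 and 1038 in diapausing and of 602, 319.5, 530.0 and 438 in non-diapausing females. The only probe that lists tetur16g03680 alone, CUST_37780, had signals of 4.92 to 17.7 in diapausing and 6.63 to 17.0 in non-diapausing females. CUST_37780 was not well above background in either group on any array, so that no value came from a probe of tetur16g03680 alone.

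The kept probes of tetur16g03680 averaged between 1.03 and 1.46. On CUST_37781 and CUST_40261 non-diapausing females were well above background on 3 of the 4 arrays, and on the others on all 4. With no filter on dim probes the mean of tetur16g03680 was 0.71, and with normexp and loess it was 0.60, both below 2-fold.

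**Figure D3:**
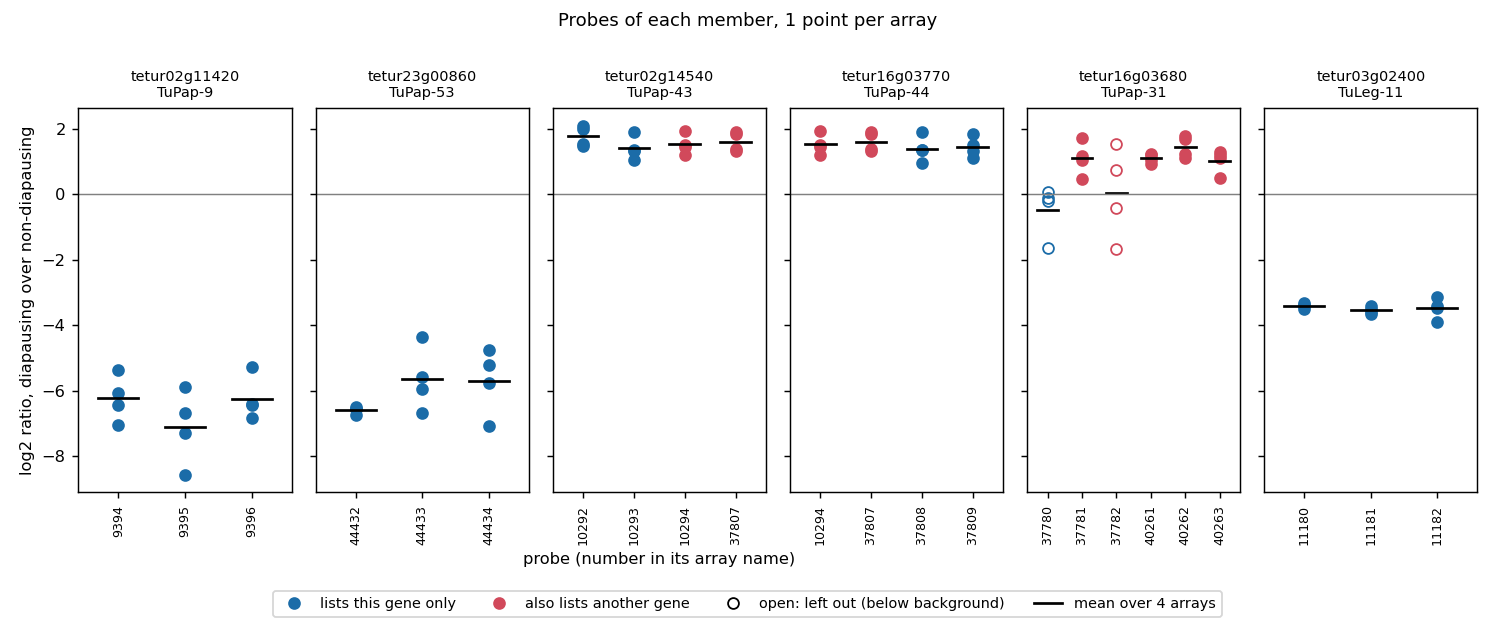
Log2 ratio of diapausing over non-diapausing females (vertical axis) for each probe of the 6 members (horizontal axis, the number in the probe name), with 1 point per array and a bar for the mean. Probes in red also list another gene and open points were left out as below background. For tetur16g03680 the kept probes, at means of 1.03 to 1.46, are all shared.

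The members stand at both ends of the C1A genes in the study's list, which it chose on these samples, so that the counts on it are no independent evidence of direction. Besides the members the list holds 30 C1A genes, all called lower, against the 9.10% of all genes tested, and all well above background in both groups on all 4 arrays. Their median was -2.09, while that of all genes tested was 0.10. The 8 cathepsin B genes among them had a median of -2.15 and the 21 cathepsin L genes one of -1.94, and tetur04g08380, the only cathepsin O, was at -2.13. With tetur02g11420 at -6.53, the deepest cathepsin B besides it was tetur01g16463 (TuPap-18) at -3.35 ± 0.23 (SD, n = 4). In 8 of these 30 genes at least 1 kept probe also lists another gene.

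Just outside the choice of members lay tetur23g00890 (TuPap-57), with log2 ratios of -5.70, -5.00, -5.42 and -4.09 and a mean of -5.05 ± 0.71 (SD, n = 4). The arrays of tetur23g00890 overlapped in range with those of tetur23g00860, the less deep of the 2 lowest members. Next was tetur23g00880 (TuPap-30), at -5.48, -5.63, -4.45 and -2.87 with a mean of -4.61 ± 1.27 (SD, n = 4), and then tetur12g01830 (TuPap-40) at -4.25 ± 0.46 (SD, n = 4). At the other end, tetur24g00270 (TuPap-21), a cathepsin B at -1.06 ± 0.22 (SD, n = 4), was the nearest to the 3 genes that rose, and no listed C1A gene lay between them.

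The legumain side of the list was narrower. The other listed C13 gene, tetur02g14360 (TuLeg-12), was at -2.31, -1.92, -1.59 and -2.26, with a mean of -2.02 ± 0.34 (SD, n = 4). Its highest and lowest arrays both lay above all 4 arrays of tetur03g02400. A further 10 genes in the list bear legumain names although the list places them in family C2 (calpains). Of these 10, 8 were called lower, against 9.10% of all genes tested. The study listed these 10 as lower on these same arrays, so that a high count is built in. Their means ran from -2.01 to -0.15, so that tetur03g02400 was the deepest fall of the 12 genes with such names.

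**Figure D4:**
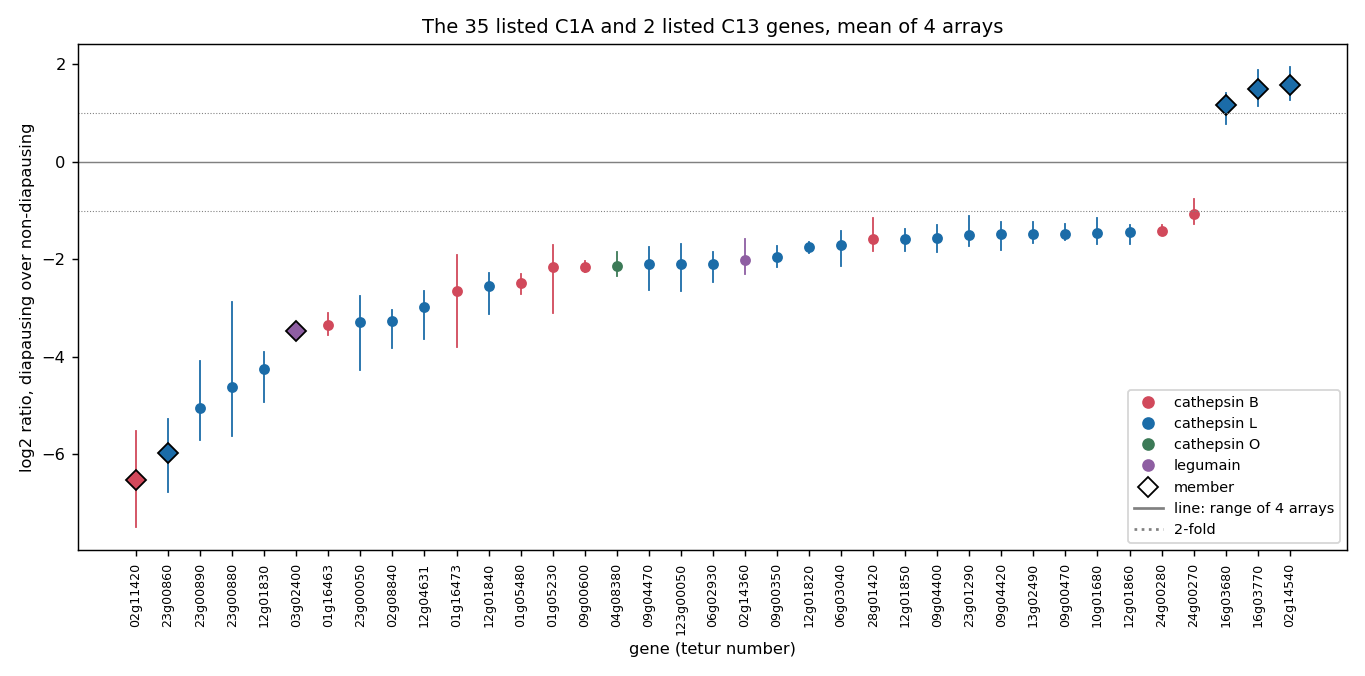
Mean log2 ratio of diapausing over non-diapausing females (vertical axis) for the 35 listed C1A and 2 listed C13 genes (horizontal axis, in order of the mean), with vertical lines for the range of 4 arrays, colours for the annotation and diamonds for the members. Dotted lines mark 2-fold, and the 3 members at the right are the only genes above 0.

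Both deepest falls were lowest on replicate 1 and highest on replicate 4. The other 30 listed C1A genes, all called lower on these same arrays, were compared with this order. For tetur23g00860 the order rests in part on DIA signals close to background. Its probe CUST_44432 was lowest on replicate 4, at -6.73, and with normexp and loess the SD of the gene was 0.13, against 0.61. Replicate 1 was lowest in 22 of the other 30 listed C1A genes (73.3%), against 38.9% of all 1364 genes called lower. Replicate 2 was most often the highest, in 13 of the 30 (43.3%, against 34.7% of all genes called lower), and replicate 4 was highest in 12, against 26.2% of all genes called lower. The 6 vitellogenin genes were also lowest on replicate 1 and highest on replicate 4, and their median log2 ratio was -9.91, -8.04, -9.22 and -5.44 on the 4 arrays. Without replicate 4 the mean was -6.87 ± 0.56 (SD, n = 3) for tetur02g11420 and -6.21 ± 0.49 (SD, n = 3) for tetur23g00860. The part of replicate 4 in these spreads was not tested.

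The order of genes along the scaffolds was taken from the gene numbers, without coordinates. Listed C1A genes stood within 100 gene numbers of 3 members. On scaffold 16, tetur16g03680 and tetur16g03770 lie 90 numbers apart, and near tetur23g00860 lie tetur23g00880 and tetur23g00890. Scaffold 23 holds 5 listed C1A genes, with a median of -4.61 and a range from -5.98 for tetur23g00860 to -1.51 for tetur23g01290. Medians of the other scaffolds with 4 or more listed C1A genes were -2.57 on scaffold 1, -2.14 on scaffold 12 and -1.75 on scaffold 9. Both tetur23g00880 and tetur23g00890 fell, as did tetur23g00920 at -3.58 ± 0.12 (SD, n = 4). The gene between the member and these, tetur23g00870, was at 0.81 and not called, and tetur23g00850 on the other side of the member was called higher. Among kept probes, 3 of 4 of tetur23g00870, 1 of 3 of tetur23g00880 and 1 of 4 of tetur23g00890 also list another gene.

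Over all members, 84 genes within 100 gene numbers on the same scaffold were tested, members left out. Of these neighbours 12 were called higher (14.3%, against 9.04% of all genes) and 13 lower (15.5%, against 9.10%), and their median was 0.03. With normexp and loess 3 were called higher and 8 lower, where 337 and 804 of all 14986 genes were. The gene next to tetur02g11420, tetur02g11410, fell by 1.29, and it was the only 1 called lower of the 19 tested neighbours of that member, with 1 called higher. Around tetur02g14540 5 of 14 neighbours were called higher and 3 lower, with the largest of these rises in tetur02g14450 at 3.61 ± 0.58 (SD, n = 4).

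The members that rose on scaffold 16 lay among genes of both directions. A neighbour of tetur16g03770, the CYP gene tetur16g03790, rose by 1.49 ± 0.057 (SD, n = 4), and tetur16g03710, which lies between tetur16g03680 and tetur16g03770, fell by 2.04. Of the 9 kept probes of tetur16g03790, 5 also list another gene, and tetur16g03710 rests on 1 kept probe. Near tetur16g03680 the legumain-named genes tetur16g03650 (TuLeg-15) and tetur16g03670 (TuLeg-13) were at -2.01 and -0.15, of which the first was called. Around tetur03g02400 3 of 15 neighbours were called higher and 1 lower, where 9.04% and 9.10% of all genes were. Of the adjoining genes, tetur03g02390 was at -1.29 and tetur03g02410 at 1.05, both called.

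**Figure D5:**
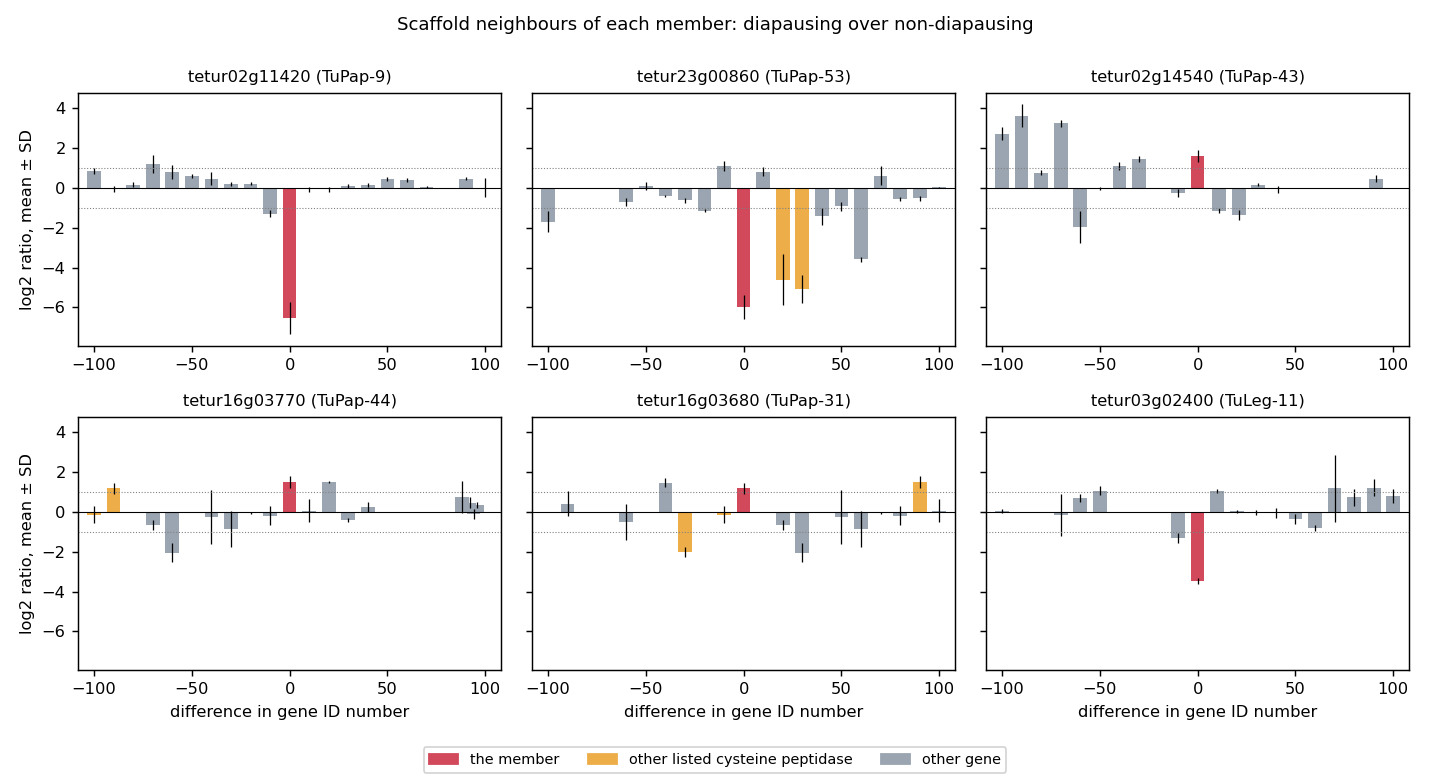
Mean log2 ratio ± SD of 4 arrays (vertical axis) for each member and its neighbours, placed by the difference in gene number on the same scaffold (horizontal axis), with dotted lines at 2-fold. Beside tetur23g00860 stand 2 further listed peptidases that fell, at -4.61 and -5.05, while the gene next to tetur02g11420 is at -1.29.

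The genes most like each member over the 4 arrays were found by the root mean square difference of the log2 ratios among 14414 genes that were detected on all 4 arrays. Genes that share a probe with the member were left out, which removes tetur02g14540 and tetur16g03770 as candidates for each other and tetur196g00020 as one for tetur16g03680. For tetur02g11420 the nearest was tetur19g00740, a serine protease gene, at a difference of 0.17 and a mean of -6.61. For tetur23g00860 it was tetur07g02730, at 0.30 and a mean of -6.21. For tetur03g02400 it was tetur01g13750, at 0.10. Among these candidates both tetur02g14540 and tetur16g03770 had tetur01g15530 as their nearest, at 0.13 each, and tetur16g03680 had tetur28g00840 at 0.083. None of the 3 nearest candidates that share no probe with a member was a listed cysteine peptidase, but such genes are few among the 14414. The differences to the nearest genes were larger for the 2 deepest falls than for the other 4 members. These 2 were the 30th and 34th lowest of all genes tested, where few genes lie, so that the larger differences say little of likeness.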

How the data were processed

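The authors hybridized labelled cRNA to custom arrays on 1 slide and processed the scans with Agilent Feature Extraction (version 10.7.1.1 per the file headers). As deposited, intensity values are processed signals after background subtraction and dye normalization, and median signals with local background. The deposited log10 ratios of Cy5 over Cy3 were converted to log2. A deposited table of log2 ratios made by the authors was used as an alternative. The number of arrays limits the precision.

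Spots marked as outliers (49 to 114 per array) and controls were left out, probes were averaged per gene, and a probe listing several genes counted for each. The mean ratio over 4 arrays was tested against 0 with lmFit and eBayes of limma 3.58.1 (R 4.3.3). Bounds and normexp values used an offset of 50. The fit was tested on simulated data. Replicate numbers pair both channels of an array, since they share it. The 6 members, the lists and the tests were chosen with earlier results of these data known. Named genes are the members, the extremes and scaffold groups of the listed C1A and C13 genes, neighbours within 100 gene numbers that were called or adjoin a member, and the 3 genes most like each member. Alternatives were normexp with loess or with median centring, spike-in scaling, the deposited table, other detection filters, other summaries of probes, probes of 1 gene, the array row as a covariate, separate channels, and each replicate left out. Peptidases and inhibitors found by annotation keyword, probe sequences and the qPCR values were not analysed here. Figures were made with matplotlib 3.10.9 in Python 3.11.15.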

Additional observations from a re-analysis of the deposited data

Results flagged for a closer look

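Of 46 genes examined (the listed C1A and C13 genes, the vitellogenin genes and the study's reference genes), 1 had an array that stood apart from the others. In tetur02g08840 (TuPap-52), a cathepsin L, replicate 1 was at -3.82, while the other arrays lay between -3.11 and -3.04. The gap was 0.910 of the range of the 4 arrays, above the limit of Dixon's test, which chance alone passes in about 5% of groups.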

How the results depend on the processing

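Over 16 alternatives no member changed direction, and 80 of 95 values stayed within 1 SD. That count is largely built in, because leaving out 1 array cannot move a mean by 1 SD. The array row as a covariate returns the same mean, and the deposited table and several detection filters gave the main value for most members. With normexp and loess the means were -3.56 (tetur23g00860), 0.60 (tetur16g03680) and -3.04 (tetur03g02400), and 1141 genes were called, 337 higher and 804 lower (29.5% higher, against 49.8% of the 2719 called in the report), with 11 neighbours called against 25. Separate channels without the replicate block started from the same normexp and loess values, so that the same means of -3.56, 0.60 and -3.04 are built in. They gave 1141 genes and 11 neighbours again, which is no second result. With normexp and median centring the means were -5.50 (tetur02g11420), -3.31 (tetur23g00860), 0.74 (tetur16g03680) and -2.74 (tetur03g02400), with 1247 genes and 10 neighbours called. Spike-in scaling moved the median of all genes to 0.47, against 0.10. It gave 1.94 (tetur02g14540), 1.85 (tetur16g03770), 1.54 (tetur16g03680) and -3.11 (tetur03g02400), and 75.4% of called genes were then higher. Without a detection filter tetur16g03680 was at 0.71, and with probes of 1 gene only it had no value. The cause was not tested.

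Leaving out each array gave means of -6.87 to -6.21 (tetur02g11420), -6.21 to -5.71 (tetur23g00860), 1.46 to 1.69 (tetur02g14540), 1.36 to 1.61 (tetur16g03770), 1.09 to 1.30 (tetur16g03680) and -3.54 to -3.42 (tetur03g02400), with 2619 to 2735 genes and 24 to 27 neighbours called. Of the listed genes, 34 to 35 C1A and 2 C13 genes were then called. Signal over background limits the values of tetur23g00860 in diapausing females. Counts of peptidases by annotation keyword were not run.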
